A study of Rattus norvegicus with 16 samples.

Results

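The cytochrome P450 genes are those whose rat symbol begins with Cyp and a digit, other than Cyp51. In the renal outer medulla 69 of them could be named among 15284 named genes on the array, through 112 probes. The kidneys came from male Crl:CD Sprague-Dawley rats, 5 weeks old when dosing began, that were gavaged once daily either with corn oil as the vehicle or with 2-amino-4-nitrophenol (ANP) at 750 mg/kg/day dissolved in corn oil. The 16 one-colour Agilent arrays covered days 1, 7, 14 and 28 in both groups. On days 1 and 7 each group was 1 array of RNA pooled from 3 animals, so those days have no replicate, and on days 14 and 28 each group was 3 arrays of 1 animal each. Each ANP group was set against the vehicle group of its own day, which asks how the P450 genes of this zone respond as dosing goes on.

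P450 enzymes are haem proteins that insert an oxygen atom into drugs, steroids, fatty acids and vitamins, with electrons passed on by Por in the endoplasmic reticulum and by ferredoxins in mitochondria. The Cyp1 to Cyp3 families are known mainly for drugs and steroids, the Cyp4 family for fatty acids, and most of the higher numbers for one endogenous substrate each. In the rat kidney the proximal tubule is the best known site, where Cyp4a and Cyp2c23 enzymes turn arachidonic acid into vasoactive and salt-regulating products, and where vitamin D is activated and degraded.

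Markers of the segments expected in the labelled tissue gave signal. All 10 markers of the straight proximal tubule and all 7 of the thick ascending limb were well above background on every array. So were 12 of 12 markers of the cortical proximal tubule and 6 of 6 of the glomerulus, so this call does not tell outer medulla from cortex. Each array had 64.8% to 69.6% of its probes well above background.

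Levels are log2 processed signals with the 75th percentile of the array set to 0, so a level belongs to its own probe and is never compared between genes. A ratio is ANP minus vehicle on that log2 scale, and 1 unit is a doubling. A probe counted as measured on an array where the scanner software marked it well above background. Of the 69 genes, 37 were well above background on all 16 arrays, 21 on some and 11 on none. By family, that was all arrays for 16 of 30 Cyp2 genes, 11 of 14 Cyp4 genes, 0 of 3 Cyp1 and 0 of 5 Cyp3 genes, both Cyp26 genes, both Cyp27 genes and the only Cyp24 gene. The 11 that were never well above background were Cyp2a3, Cyp2b1, Cyp2b21, Cyp2c12, Cyp2c22, Cyp2j10, Cyp3a62, Cyp4f18, Cyp7a1, Cyp11b1 and Cyp19a1. They include Cyp2c12, known as a P450 of the female rat liver, Cyp7a1, which starts bile acid synthesis in liver, and Cyp19a1, the aromatase. For the tests at days 14 and 28, 50 members were well above background on every array of at least 1 group, among 11849 named genes tested in all.

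Upstream sequences are shown for 3 members whose arrays the results turn on: Cyp2c11, whose measured level was lower with ANP at every day, Cyp3a9, whose measured level was higher at every day, and Cyp26a1, which was higher at day 1. Each is the 250 bases before the RefSeq start of the gene on GRCr8, read 5′ to 3′ on the gene's strand. Capitals mark matches, on either strand, to the letters TATAAA (the TATA box), GCGTG (the core bound by the aryl hydrocarbon receptor), TGACTCA (the AP-1 site) and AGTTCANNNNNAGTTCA (a direct repeat read by retinoic acid receptors). No searched motif overlapped another in these 3 windows. The windows are chr1:246174966-246175215 on the plus strand for Cyp2c11, chr12:21960161-21960410 on the minus strand for Cyp3a9 and chr1:244883572-244883821 on the plus strand for Cyp26a1.
Cyp2c11: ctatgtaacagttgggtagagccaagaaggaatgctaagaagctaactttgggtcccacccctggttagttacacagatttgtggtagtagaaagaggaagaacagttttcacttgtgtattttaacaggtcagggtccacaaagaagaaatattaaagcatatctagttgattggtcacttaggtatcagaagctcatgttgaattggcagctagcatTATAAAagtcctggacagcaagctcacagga
Cyp3a9: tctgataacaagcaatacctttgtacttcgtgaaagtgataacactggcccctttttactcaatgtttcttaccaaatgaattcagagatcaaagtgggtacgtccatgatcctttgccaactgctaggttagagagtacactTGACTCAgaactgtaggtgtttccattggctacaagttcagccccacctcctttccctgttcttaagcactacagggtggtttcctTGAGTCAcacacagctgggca
Cyp26a1: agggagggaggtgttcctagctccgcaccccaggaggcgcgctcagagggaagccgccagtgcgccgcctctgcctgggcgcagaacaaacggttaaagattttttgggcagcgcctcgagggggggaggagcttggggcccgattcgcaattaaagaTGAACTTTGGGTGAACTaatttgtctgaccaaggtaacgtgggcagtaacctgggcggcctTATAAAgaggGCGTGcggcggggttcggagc

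A promoter entry was found for 54 members, and 27457 promoters were searched over the same length. A TATA box was present in 17 of the 54, or 31.5%, against 13.1% of all promoters. The aryl hydrocarbon receptor core was present in 13, or 24.1%, against 27.2%, and Cyp26a1, Cyp1b1 and Cyp2r1 were among them. The AP-1 letters were present in 2, Cyp3a9 (with 2 matches) and Cyp26b1, against 3.98% of all promoters. The retinoid direct repeat was present in Cyp26a1 alone among the members and in 3 of all 27457 promoters. Searches for TGACNNNGC (the core of the antioxidant response element) and TTCNNNGAA (bound by STAT factors) matched 4 and 5 members, against 10.2% and 7.52% of all promoters, and neither matched in the windows printed here. A match only says that the letters are there. The genes were picked with their ratios known. The TATA box and AP-1 were added to the search, and the spacing of the retinoid repeat was corrected, after these 3 windows had been read, so their matches here were chosen rather than found by a blind search.

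Few P450 genes passed the test at any day, while the day 1 pools leaned towards lower levels. At day 14, 0 of 50 members passed in either direction (limma with Benjamini-Hochberg adjustment over all genes, threshold 0.05), against 0.363% of all tested genes higher and 0.118% lower. At an unadjusted p under 0.05 there were 6, and the smallest adjusted p was 0.0531. At day 28, 1 member was lower and 0 were higher, with 9 at an unadjusted p under 0.05, against 4.49% of all genes higher and 2.69% lower. With the differences of both days averaged, which reuses the same arrays, 3 members were higher (Cyp3a9, Cyp27a1 and Cyp20a1) and 1 was lower (Cyp2c11), against 6.14% of all genes higher and 4.08% lower. Of these, Cyp3a9 passed the filter on dim probes only through a group where it was high. The share of members called was thus near or below that of all genes. The median ratio of the 50 members was -0.16 at day 14 and -0.10 at day 28, where all genes had medians of 0.01 and 0.02. No member's ratio differed between day 28 and day 14 by limma (0 of 50, background 0% in both directions, 1 member at an unadjusted p under 0.05, smallest adjusted p 0.497).

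In the pools, a 2-fold difference in measured values, without a test, stands in for a call. At day 1, 15 of 53 comparable members (28.3%) were 2-fold or more lower with ANP by their measured values, against 4.95% of all genes compared, and 2 (Cyp3a9 and Cyp26a1) were at least 2-fold higher, against 4.83%. Of the 53, 43 lay below 0, and their median ratio was -0.70 against -0.04 for all genes. At day 7, 6 of 56 members were 2-fold or more lower by their measured values, against 2.53% of all genes, and 3 (Cyp3a9, Cyp24a1 and Cyp2f4) were at least 2-fold higher, against 2.12%. Among the lower ones, 3 had an ANP signal too near background to bound the difference at 2-fold, Cyp1a2 at day 1 (at least 1.37-fold) and Cyp2g1 and Cyp1b1 at day 7 (at least 1.36-fold and 1.12-fold). The day 7 median was -0.07 against 0.04 for all genes. With another background correction (normexp on the median signal, then quantile normalization) the lower counts fell to 6 at day 1 and 1 at day 7. The shares of all genes given above were not recomputed under that correction. Whether the lower members of day 1 still exceed the share of all genes under it was not tested. Beside the day 1 shift, 4 of 10 markers of the straight proximal tubule (S3), the main P450-bearing segment of this zone, were also at least 2-fold lower, and the summed S3 marker level was 9.92 with ANP against 10.61 with vehicle. All 10 were well above background on every array. Of 7 liver markers compared at day 1, 3 were at least 2-fold lower and 1 higher, with a median ratio of -0.82. The summed level of the 8 listed markers was 5.27 with ANP against 5.67. It was mostly the level of Serpinc1, at 4.99 with ANP against 5.35. The part of either list in the P450 values was not tested. In whole tissue, fewer cells of a type and less RNA per cell cannot be told apart.

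The members past 2-fold in the day 1 pools came from several families. After Cyp3a9 and Cyp26a1, the lower ones began with Cyp8b1, Cyp1a1, Cyp2c13, Cyp11b2, Cyp1a2, Cyp2c7 and Cyp2c11. Cyp2c13 stood at -3.09 with vehicle and -5.26 with ANP (4.49-fold lower), and Cyp2c7 at -3.76 against -5.64 (3.68-fold). Cyp11b2 stood at -4.66 against -6.76, where the ANP pool was not well above background, and Cyp1a2 at -5.69 against -7.71. Cyp2j4, Cyp2c6v1, Cyp39a1, Cyp2b15, Cyp2e1, Cyp4a3, Cyp4a1 and Cyp2d3 made up the rest, at 2.85-fold to 2.04-fold lower. At day 7 the lower ones were Cyp2c11, Cyp2g1, Cyp1b1, Cyp8b1, Cyp2b15 and Cyp2c7, of which Cyp2c7 stood at -2.92 against -3.99 (2.09-fold). Cyp1b1 counts here by its chosen probe, and its other probe pointed the other way, as given below.

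**Figure D1:**
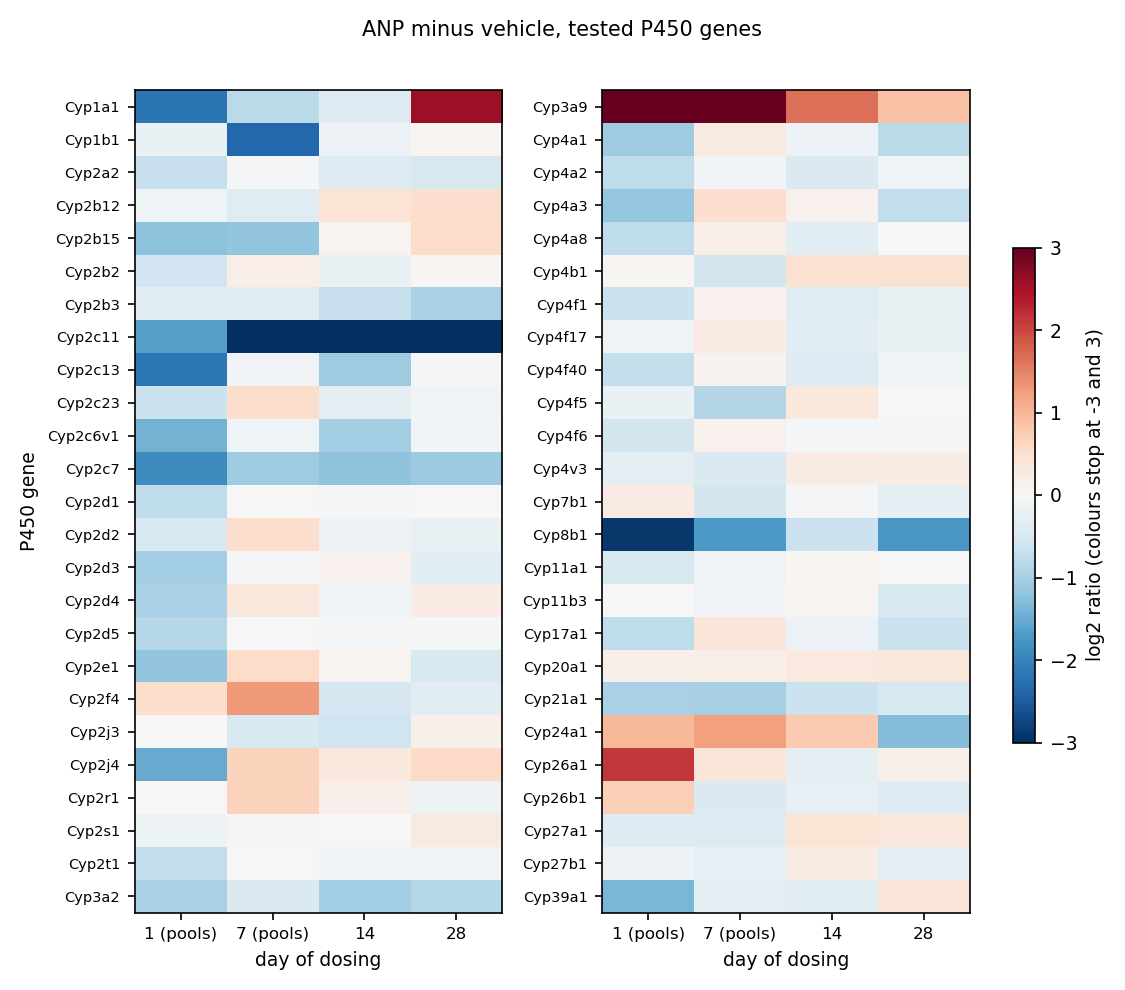
Heat map of the ratio of ANP to vehicle (log2, colour) for the 50 tested P450 genes in rows and the 4 days of dosing in columns; days 1 and 7 compare 1 pooled array per group, days 14 and 28 are differences of means of 3 arrays per group. Cyp2c11 is blue on all 4 days, Cyp3a9 is red on all 4, from 9.44 on day 1 (beyond the end of the colour scale) to 0.88 on day 28.

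Cyp2c11, best known as the androgen-hydroxylating P450 that male rat liver makes in quantity, had the largest ratio of any tested member at days 14 and 28. The vehicle pools of days 1 and 7 stood at 1.16 and 1.29, and the ANP pools at -0.50 and -3.74, ratios of -1.66 (3.16-fold lower) and -5.03 (32.6-fold lower). At day 14 the vehicle animals stood at 1.32, 3.99 and 2.99 and the ANP animals at -3.28, -4.44 and -4.08. At day 28 the vehicle animals stood at 2.45, 3.59 and -2.13 and the ANP animals at -4.94, -3.72 and -5.52. Every treated animal lay below every vehicle animal of its day, and vehicle replicate 3 of day 28 lay closest to the treated animals. Group means were 2.77 ± 1.35 against -3.94 ± 0.59 (SD, n = 3 each) at day 14 and 1.30 ± 3.03 against -4.73 ± 0.92 at day 28. The probe was well above background on all 16 arrays.

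The Cyp2c11 ratio was -6.70 at day 14 (SE 1.26, 95% interval -9.49 to -3.91, 104-fold lower, limma adjusted p = 0.0531), just short of the threshold. It was -6.03 at day 28 (SE 1.26, interval -8.81 to -3.24, 65.3-fold lower, limma adjusted p = 0.0232). Averaged over both days it was -6.36 (SE 0.89, 82.4-fold lower, limma adjusted p = 0.00297). The ratios of the days differed by 0.67 (interval -3.27 to 4.61, limma adjusted p = 0.935). The day 28 call was lost without vehicle replicate 1 (ratio -5.46, limma adjusted p = 0.0832), vehicle replicate 2 (-4.89, adjusted p = 0.0795), ANP replicate 1 (-5.92, adjusted p = 0.058) or ANP replicate 3 (-5.63, adjusted p = 0.0516) of that day. With only the 2 groups of day 28 in the fit the limma adjusted p was 0.0733. Without vehicle replicate 3 of day 28 the ratio was -7.75 there (limma adjusted p = 0.0056), and day 14 passed as well (adjusted p = 0.0139), as it did without vehicle replicate 2 of day 28 (adjusted p = 0.0431). The call over both days held with any 1 array left out, at ratios from -7.22 to -5.79.

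Slides bear on this comparison. The 4 pools shared slide 1. Slide 2 held the vehicle animals of day 14 with ANP replicate 1, slide 3 held ANP replicates 2 and 3 of day 14 with the vehicle animals of day 28, and slide 4 held the ANP animals of day 28. At day 28 slide and treatment cannot be told apart. Within slide 2, the Cyp2c11 difference of ANP replicate 1 from the vehicle mean was -6.05, and with slide as a fixed block the ratio was that same value (limma adjusted p = 0.615). The day 7 pools, on 1 slide, differed by -5.03.

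**Figure D2:**
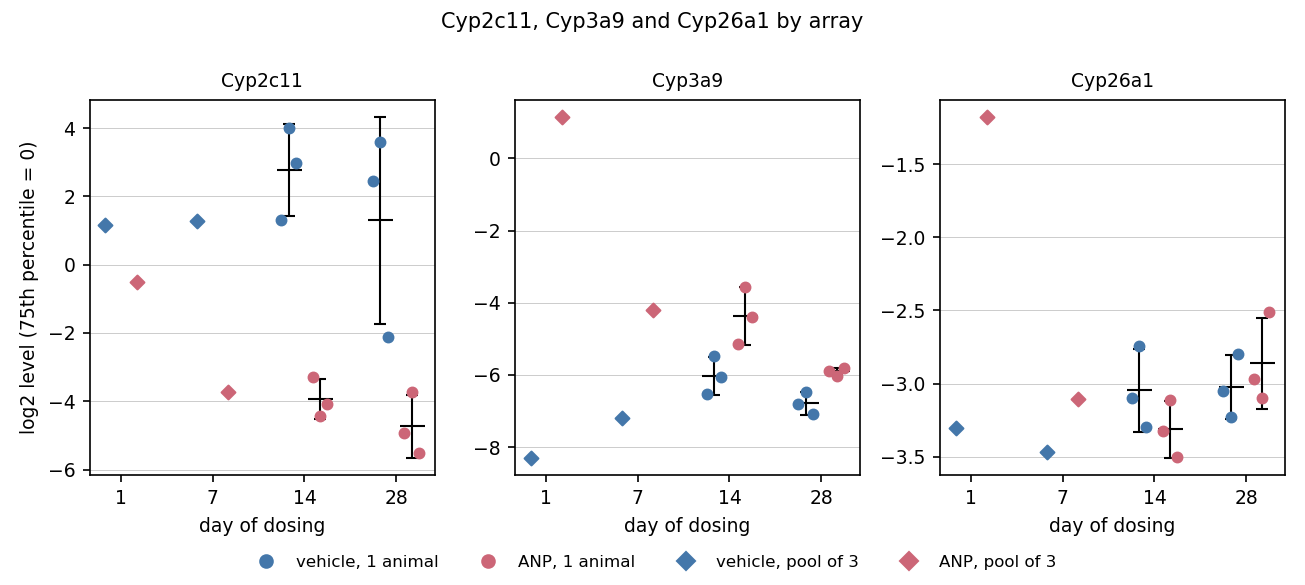
Level (log2, 75th percentile of the array = 0) of Cyp2c11, Cyp3a9 and Cyp26a1 by day of dosing, vehicle in blue and ANP in red; circles are single animals, diamonds pools of 3, and black bars the mean ± SD of 3 animals. Cyp2c11 lies between -2.13 and 3.99 on vehicle arrays and at or below -0.50 on ANP arrays, Cyp3a9 peaks at 1.15 in the ANP pool of day 1, and Cyp26a1 is high only in that pool (-1.18).

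Other liver-type P450 genes were also lower in the day 1 pools. By the probe chosen for each gene, their groups overlapped at days 14 and 28. Their difference from Cyp2c11 was not tested. Cyp2c6v1, Cyp2c7 and Cyp2c13, abundant P450 genes of rat liver, and Cyp3a2, a steroid and drug oxidising P450 of male rat liver, varied widely between animals of 1 group. Cyp2c7 stood at -2.97, -5.21 and -3.34 in the vehicle animals and -5.40, -4.08 and -5.62 in the ANP animals of day 14. At day 28 Cyp2c7 stood at -3.28, -7.88 and -4.90 against -8.00, -3.11 and -8.23, so that the groups overlapped on both days. Of these, -7.88, -8.00 and -8.23 were not well above background, nor was the -5.62 of day 14. The spread and the ratios of Cyp2c7 thus rest in part on values near background. Its ratios were -1.20 (SE 1.44, limma adjusted p = 0.796) and -1.09 (SE 1.44, limma adjusted p = 0.668). Cyp2c13 had ratios of -1.07 and -0.06 (SE 0.98 each), Cyp2c6v1 of -1.02 and -0.08 (SE 0.79 each), and Cyp3a2 of -1.02 and -0.85 (SE 1.24 each), and none passed. The other Cyp2c6v1 probe, A_44_P133140, was examined after the values were seen. At day 14 it stood at -3.48, -4.29 and -2.60 in the vehicle and -5.73, -4.42 and -6.45 in the ANP animals, without overlap. Its day 14 ratio of -2.08 (limma adjusted p = 0.602 over all probes) did not pass, and at day 28 its groups overlapped.

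Arrays high for these genes were mostly also high for Alb, the albumin gene of hepatocytes and a member of the liver marker list. The other liver markers did not all follow Alb. In the ANP animals of day 28 Ttr went with Alb, at -0.9, 0.9 and -2.9. Apoh ran against Alb there, at 1.6, -0.2 and 0.8. Alb stood at 2.03, 0.70 and 2.06 in the vehicle animals of day 14 and 0.59, 1.32 and 0.42 in the ANP animals. At day 28 Alb stood at 2.22, -0.80 and 0.28 against -1.04, 1.45 and -1.91. Cyp3a2 followed it in part, at -1.89, -5.95 and -4.23 in the vehicle animals of day 28 and -3.54, -3.25 and -7.83 in the ANP animals, of which replicate 1 was high for Cyp3a2 with Alb at -1.04. Cyp2c13 stood at -3.32, -6.96 and -5.85 against -5.48, -3.69 and -7.14, and Cyp2c6v1 at -3.79, -6.16 and -5.40 against -6.21, -3.31 and -6.09. Cyp3a2 at -5.95 and -7.83 was not well above background. Neither was Cyp2c13 at -6.96, -5.85 and -7.14, nor Cyp2c6v1 at -6.16, -6.21 and -6.09. Such values show only that the signal was near background, so the size of these swings was not measured. In vehicle replicate 2 of day 28, where Alb was -0.80, Cyp2c11 was 3.59, and in ANP replicate 2 of that day, where Alb was 1.45, Cyp2c11 was -3.72. In vehicle replicate 1 of that day both were high (Alb 2.22, Cyp2c11 2.45). In ANP replicate 3 both were low (Alb -1.91, Cyp2c11 -5.52).

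Among 8 liver markers, 6 to 8 were well above background on each array, and their summed level ran from 5.24 to 5.95 in the vehicle and 4.63 to 4.90 in the ANP group of day 14, and from 5.86 to 6.29 against 5.53 to 5.88 at day 28. The sum adds levels on the linear scale and was mostly the level of Serpinc1, so it does not stand for all 8 markers alike. The highest sum, 6.29, was that of vehicle replicate 2 of day 28, where Serpinc1 stood at 6.23 and Alb at -0.80. Over both days 2 of the 7 tested (Ahsg and Serpinc1) were lower and 0 were higher, against 4.08% and 6.14% of all genes. Without the 4 arrays highest in Alb, a choice made after the values were seen that leaves replicate 2 as the only vehicle animal of day 14, the Cyp2c11 ratio was -7.92 at day 14, -5.96 at day 28 and -6.94 over both days, with limma adjusted p of 0.237, 0.171 and 0.0586 on the remaining arrays. There the day 14 ratio of Cyp2c7 turned to 0.17 and that of Cyp3a2 to 0.11, each against that 1 vehicle animal, which is assumed to vary like the other groups. What part liver RNA had in the Cyp2c11, Cyp2c7, Cyp2c6v1, Cyp2c13 and Cyp3a2 values was not tested.

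**Figure D3:**
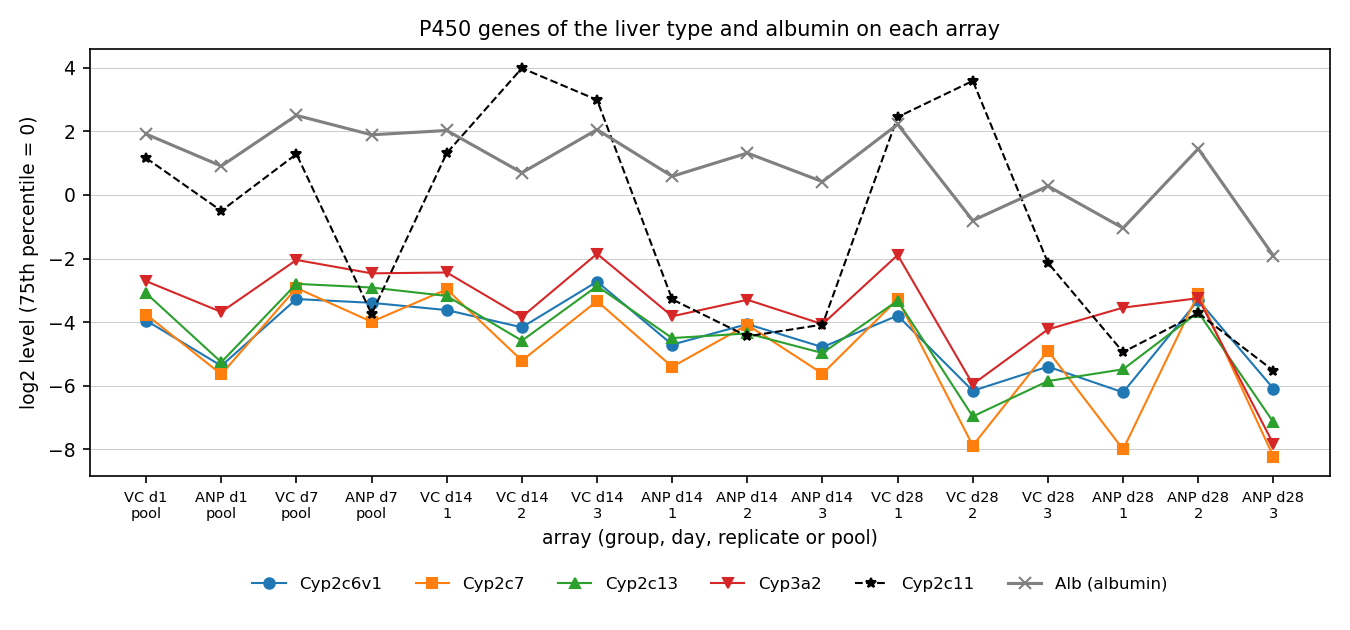
Level (log2, 75th percentile of the array = 0) of 4 liver-type P450 genes, Cyp2c11 and Alb on each of the 16 arrays, in the order of day and group (VC, vehicle; pool, RNA of 3 animals). The lines of Cyp2c6v1, Cyp2c7, Cyp2c13 and, in part, Cyp3a2 rise and fall with Alb between animals of 1 group. An example is ANP replicate 2 of day 28 (Alb 1.45), while Cyp2c11 at -3.72 is low there. Several low points of these 4 genes on day 28 were not well above background. Levels are not comparable between genes.

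Of the 22 tested Cyp2 genes only Cyp2c11 passed the test in any ANP comparison, and the family's median ratio was -0.13 at day 14 and -0.09 at day 28. Cyp2c23, the main arachidonic acid epoxygenase of rat kidney, had ratios of -0.29 (SE 0.26, limma adjusted p = 0.70) and -0.10 (SE 0.26, limma adjusted p = 0.843), with levels from 6.67 to 8.29 over the 12 animals. Cyp2e1, which oxidises ethanol and small solvents, had ratios of 0.07 and -0.45 (SE 0.34 each), after -1.19 in the day 1 pools and 0.55 in the day 7 pools. Cyp2d1 and Cyp2d5 are near-identical copies that probes may not tell apart, and had ratios of -0.06 and -0.03 at day 14 and -0.01 and -0.03 at day 28 (SE 0.22 and 0.23). Cyp2d4 had ratios of -0.10 and 0.25 (SE 0.16). None of these 5 genes passed the test.

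Among the other Cyp2 genes, Cyp2j4, an arachidonic acid epoxygenase, went from -1.51 in the day 1 pools (2.85-fold lower) to 0.66 in the day 7 pools, and to 0.32 and 0.57 (SE 0.32 each) at days 14 and 28. Its relative Cyp2j3 had ratios of -0.61 and 0.16 (SE 0.38 each). Cyp2s1, an extrahepatic P450 of the aryl hydrocarbon receptor pathway, had ratios of 0.02 and 0.28 (SE 0.20 each). Cyp2b15 was lower in both pools, by -1.24 at day 1 (where the ANP pool was not well above background) and -1.19 at day 7. At day 28 it stood at -4.75, -5.17 and -5.42 in the vehicle and -4.43, -4.59 and -4.67 in the ANP animals, a ratio of 0.55 (SE 0.18, limma adjusted p = 0.0865), with groups that did not overlap and a test that was not passed. Cyp2g1, an olfactory P450, was well above background on 2 arrays only, at -5.32 in the vehicle pool of day 7 and -3.38 in ANP replicate 1 of day 28. Among Cyp2 genes not described singly, ratios ran from -0.69 (Cyp2b3) to 0.41 (Cyp2b12) at day 14 and from -0.97 (Cyp2b3) to 0.50 (Cyp2b12) at day 28, and none passed. Those tested were Cyp2a2, Cyp2b2, Cyp2b3, Cyp2b12, Cyp2d2, Cyp2d3 and Cyp2t1.

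Cyp3a9 had the largest ratio among the 3 members that rose over both days. This steroid and drug oxidising P450 of the Cyp3 family stood at -8.29 in the vehicle pool of day 1, not well above background, and at 1.15 in the ANP pool. Against the lowest signal that counted as well above background on the vehicle array, the fold was at least 147-fold higher with ANP. In the day 7 pools it stood at -7.21, again not well above background, against -4.20, at least 3.25-fold higher. A lower bound sets the bright mean against the higher of that lowest signal and the dim probe's own, and the measured ratios were 9.44 and 3.01.

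At day 14 Cyp3a9 stood at -6.53, -5.49 and -6.06 in the vehicle animals, with 1 of the 3 well above background, and at -5.15, -3.55 and -4.40 in the ANP animals, all well above. On day 28 it stood at -6.80, -6.47 and -7.09, none well above background, against -5.89, -6.02 and -5.80 with 1 of 3 well above, too close to background for a fold. The groups did not overlap on either day. The ratio was 1.66 at day 14 (SE 0.37, limma adjusted p = 0.0903), 0.88 at day 28 (SE 0.37, limma adjusted p = 0.158) and 1.27 over both (SE 0.26, limma adjusted p = 0.016). Cyp3a9 entered the test only through the ANP group of day 14, where it was high, and 5 of the 6 vehicle arrays were not well above background, so its call is not independent of the filter and no fold is given over both days. The within-slide difference of day 14 was 0.87 for ANP replicate 1. Over both days the Cyp3a9 call was lost with the normexp correction (ratio 0.33, limma adjusted p = 0.0706) and without the 4 arrays highest in Alb (1.02, limma adjusted p = 0.225).

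Of the other Cyp3 genes, Cyp3a2, described above with the liver-type genes, was well above background on 14 arrays. Cyp3a62 was well above background on 0 arrays, and Cyp3a18 on 2, the pools of day 7, at -4.76 with vehicle and -4.86 with ANP. Cyp3a23-3a1 was well above background on 2 arrays, 1 of them the ANP pool of day 7 at -5.68.

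Most Cyp4 genes were measured on every array, and by the probe chosen for each gene 0 of its 11 tested members passed at day 14, at day 28 or over both days. The Cyp4a enzymes hydroxylate fatty acids at the end of the chain and make a constrictor of renal vessels from arachidonic acid. In the day 1 pools the ratios were -1.15 for Cyp4a3 (2.22-fold lower), -1.06 for Cyp4a1 (2.08-fold lower), -0.77 for Cyp4a2 and -0.77 for Cyp4a8. Cyp4a1 stood at 4.65, 4.27 and 3.97 in the vehicle animals of day 28 and at 3.55, 3.53 and 3.41 in the ANP animals. The groups did not overlap, and the ratio of -0.80 (SE 0.31, limma adjusted p = 0.134) did not pass. Cyp4a3 did not overlap either, at 7.74, 7.66 and 8.13 against 6.83, 6.86 and 7.61 (ratio -0.75, SE 0.38, limma adjusted p = 0.239). Cyp4a2 had ratios of -0.44 and -0.13 (SE 0.23 each) by its chosen probe. Its other probe, A_44_P147020, examined after the values were seen, gave -0.97 at day 14 and -0.51 at day 28 (SE 0.30 each). Over both days that probe gave -0.74 (SE 0.21, limma adjusted p = 0.0612 over all probes), which did not pass. There every ANP animal lay below every vehicle animal of its day.

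Cyp4a8, a kidney P450 known to respond to androgen, had 3 named probes that did not agree. The chosen probe, A_42_P735495, stood at 8.29, 8.60 and 8.20 against 8.31, 7.73 and 8.10 at day 14 and at 8.48, 8.47 and 8.50 against 8.52, 8.69 and 8.29 at day 28. Its groups overlapped, with ratios of -0.31 (SE 0.16) and 0.02 (SE 0.16) and -0.15 over both days (limma adjusted p = 0.423). Probe A_64_P040989 stood at 5.67, 4.83 and 5.19 in the vehicle and 6.10, 6.29 and 6.05 in the ANP animals of day 14. The day 28 values were 5.26, 4.83 and 4.60 against 6.36, 6.29 and 6.08, so that all 6 ANP animals lay above all 6 vehicle animals. Its ratio was 1.35 at day 28 (SE 0.21, limma adjusted p = 0.0113 over all probes) and 1.13 over both days (SE 0.15, limma adjusted p = 0.00314). Probe A_64_P040994 gave 0.85 at day 28 (SE 0.28, limma adjusted p = 0.0959) and 0.91 over both days (SE 0.20, limma adjusted p = 0.0258), again with every ANP animal above every vehicle animal of its day. These other probes were examined after the values were seen. The direction of Cyp4a8 therefore depended on the probe, and the cause was not tested. The Cyp4a genes are close relatives, and probe sequences were not used here.

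**Figure D4:**
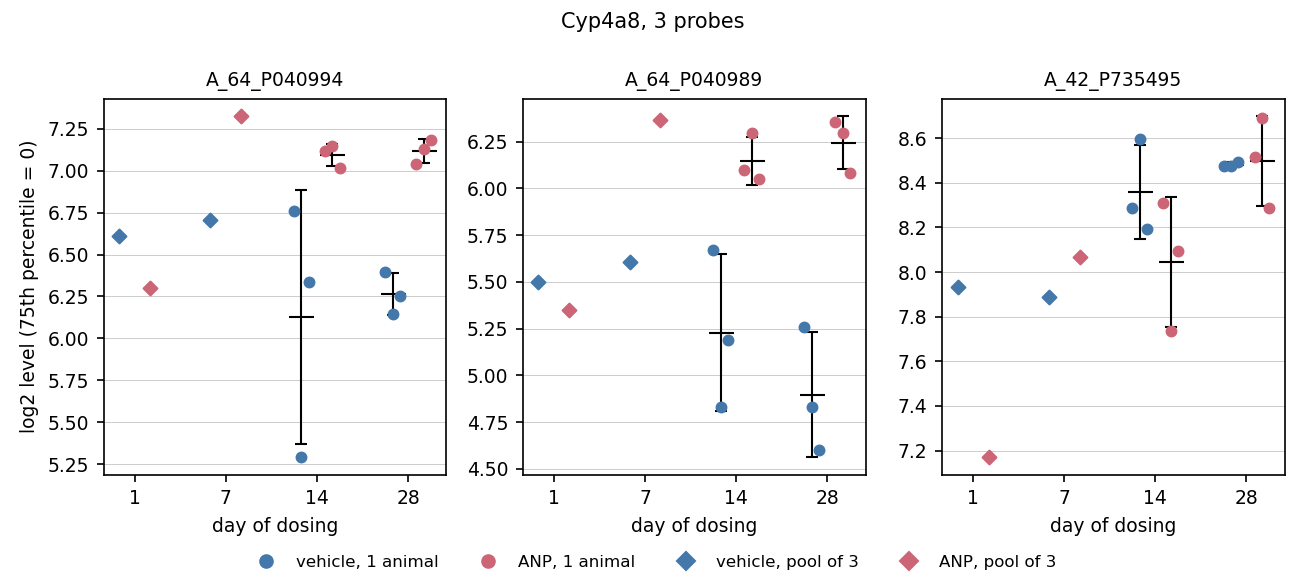
Level (log2, 75th percentile of the array = 0) of the 3 named Cyp4a8 probes by day of dosing, vehicle in blue and ANP in red; circles are single animals, diamonds pools of 3, and black bars the mean ± SD of 3 animals. At probes A_64_P040994 and A_64_P040989 the ANP animals of days 14 and 28 lie above the vehicle animals, with ratios of 0.91 and 1.13 over both days, while at A_42_P735495 the groups overlap.

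The Cyp4f genes, which inactivate leukotrienes, and the remaining Cyp4 genes did not pass either. Cyp4f1 had -0.36 and -0.20 (SE 0.18 each) at days 14 and 28, Cyp4f6 -0.06 and 0.04 (SE 0.20 each), and Cyp4f5 0.32 and -0.01 (SE 0.44 each). Cyp4b1, an extrahepatic P450 that activates some toxicants, had 0.45 and 0.46 (SE 0.25 each, 0.46 over both days, limma adjusted p = 0.131). Cyp4v3, a fatty acid hydroxylase, had 0.23 and 0.22 (SE 0.21 each). Cyp4f4 was well above background on 7 arrays and was not tested. It stood at -5.06 against -5.56 in the day 1 pools and -4.40 against -3.83 in the day 7 pools.

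The Cyp1 genes, the classic targets of the aryl hydrocarbon receptor, were dim and variable. Cyp1a1 stood at -1.52 against -3.71 in the day 1 pools (4.58-fold lower) and -2.11 against -2.92 in the day 7 pools. At day 14 it stood at -2.34, -3.30 and -3.92 in the vehicle and -2.07, -5.58 and -3.06 in the ANP animals. The day 28 values were -7.69, -5.10 and -4.83 against -2.05, -5.46 and -2.41. The -7.69 of day 28 and the -5.58 of day 14 were not well above background. The Cyp1a1 ratios below rest in part on these 2 values. The groups overlapped on both days, ANP replicate 2 being low on each, and the ratios were -0.38 (SE 1.13, limma adjusted p = 0.927) and 2.57 (SE 1.13, limma adjusted p = 0.18). The difference between the days was 2.95 (interval -0.60 to 6.50, limma adjusted p = 0.593). Cyp1a2 was well above background on 2 arrays, the vehicle pool of day 1 at -5.69 and vehicle replicate 3 of day 14 at -5.54. By its chosen probe Cyp1b1 was 5.08-fold lower in the ANP pool of day 7 by measured values, -7.95 against -5.60. By its bound it was at least 1.12-fold lower there. Its ratios were -0.17 and 0.05 (SE 0.28 each) at days 14 and 28. The other Cyp1b1 probe, A_44_P191778, was examined after the values were seen. It pointed the other way in the day 7 pools, at -4.76 with ANP against -6.10 with vehicle.

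Vitamin D is activated by Cyp2r1 and Cyp27b1, which make calcidiol and calcitriol, and calcitriol is broken down by Cyp24a1, while Cyp27a1 hydroxylates sterols in mitochondria. Cyp27a1 stood at -1.42, -1.17 and -0.85 in the vehicle and -0.66, -0.67 and -0.91 in the ANP animals of day 14. The day 28 values were -1.53, -1.72 and -1.58 against -1.22, -1.36 and -1.21, with no overlap there. It rose by a ratio of 0.38 over both days (SE 0.10, 1.30-fold, limma adjusted p = 0.0364), although the pools gave -0.40 and -0.41. This call was lost (limma adjusted p from 0.0522 to 0.089) on leaving out any 1 of 10 of the 12 arrays, all but vehicle replicate 3 and ANP replicate 3 of day 14.

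Cyp24a1 pointed both ways. The pools gave 0.99 at day 1 and 1.23 at day 7 (2.35-fold higher). At day 14 it stood at 0.05, -0.49 and -1.99 in the vehicle and 0.21, 0.16 and -0.48 in the ANP animals, which overlapped (ratio 0.78, SE 0.59, limma adjusted p = 0.633). On day 28 Cyp24a1 stood at 1.63, 2.03 and 0.99 against -0.96, 0.78 and 0.95, with the ANP animals lower throughout (ratio -1.29, SE 0.59, limma adjusted p = 0.194). The ratios of the days differed by -2.07 (interval -3.92 to -0.22, unadjusted p = 0.0317 by limma, adjusted p = 0.497), which did not pass.

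Cyp27b1 had ratios of 0.22 and -0.26 (SE 0.20 each) at days 14 and 28, and Cyp2r1 0.15 and -0.16 (SE 0.17 each). The wider list of vitamin D handling genes, receptors, carriers and transporters, had 15 tested members, and over both days 7 fell and 0 rose, with a median ratio of -0.51 against 0.01 for all genes, of which 4.08% were lower and 6.14% higher. At day 28, 4 of the 15 fell and 0 rose, against 2.69% and 4.49% of all genes, and at day 14 the counts were 0 and 0. The 7 included Gc, the vitamin D binding protein made by liver (ratio -2.41), Kl (klotho, -0.79), Lrp2 (megalin, -0.60), Dab2 (-0.56) and Cubn (cubilin, -0.51). Lrp2 and Cubn are also on the cortex marker list described below, which fell too.

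Cyp26a1 and Cyp26b1 clear retinoic acid, and Cyp26a1 is itself a textbook target of retinoic acid receptors through the repeat shown above. Cyp26a1 stood at -3.31 in the vehicle pool and -1.18 in the ANP pool of day 1, 4.37-fold higher. It stood at -3.47 against -3.11 in the day 7 pools. At day 14 it stood at -3.10, -2.74 and -3.30 in the vehicle and -3.33, -3.11 and -3.50 in the ANP animals, and at day 28 at -3.05, -3.23 and -2.80 against -2.97, -3.10 and -2.51. The ANP pool of day 1 was thus the highest of the 16 arrays, and the groups overlapped afterwards. Cyp26b1 had 0.72 in the day 1 pools and -0.44 in the day 7 pools, and then -0.25 and -0.39 (SE 0.23 each).

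Cyp20a1, a P450 without an assigned function, was measured with little spread. It stood at 0.94, 0.70 and 0.88 in the vehicle and 1.19, 1.09 and 1.13 in the ANP animals of day 14, without overlap. The day 28 values were 0.90, 1.14 and 0.72 against 1.13, 1.18 and 1.47, with slight overlap. The ratio over both days was 0.32 (SE 0.09, 1.25-fold, limma adjusted p = 0.0464), and the pools gave 0.14 and 0.19. The call was lost on leaving out any 1 of 10 of the 12 arrays (limma adjusted p from 0.0535 to 0.099), all but vehicle replicate 2 and ANP replicate 1 of day 28, and with quantile normalization (limma adjusted p = 0.0556).

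None of the tested steroid-making P450 genes passed the test at days 14 and 28 or over both days. Cyp21a1, the steroid hydroxylase on the way to corticosteroids, stood at 0.10, 0.24 and 0.20 in the vehicle and -0.32, -0.53 and -0.56 in the ANP animals of day 14. On day 28 it stood at -0.63, -0.38 and 0.02 against -0.14, -0.89 and -1.39, with overlap. In the pools it stood at -0.69 against -1.67 on day 1 and 0.09 against -0.91 on day 7, and the ratio over both days was -0.56 (SE 0.19, limma adjusted p = 0.0862), below 0 at each day but not past the threshold. Cyp17a1, needed for androgens, had -0.19 and -0.66 (SE 0.21 each, limma adjusted p = 0.0905 at day 28). Cyp11a1, which cleaves the cholesterol side chain, had 0.05 and 0.02 (SE 0.31 each). Cyp11b2, the aldosterone synthase, was well above background in the vehicle pools of days 1 and 7 only, and at day 1 was at least 2.81-fold lower with ANP. Of 8 adrenal markers, 3 or 4 were well above background on each array. Star, Mc2r and Nr5a1, which mark the adrenal cortex, were at or below -6.02 on all 16 arrays, and Akr1b7 and Dbh at or below -4.32. The other listed markers were brighter on all arrays, Hsd3b1 at or above 0.26, Th at or above -0.21 and Pnmt at or above -2.30. In the day 1 pools Hsd3b1 stood at 3.34 with ANP against 1.42 with vehicle, and the summed adrenal level at 3.49 against 1.98. What part adrenal tissue had in these values was not tested.

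Among the sterol and bile acid P450 genes, Cyp8b1, which steers bile acid synthesis towards cholic acid, was at least 2.93-fold lower in the ANP pool of day 1 (-7.50, not well above background, against -4.60) and 3.30-fold lower at day 7. At day 14 it stood at -4.04, -2.12 and -2.71 in the vehicle and -2.06, -4.28 and -4.46 in the ANP animals, and at day 28 at -3.73, -3.17 and -3.43 against -3.92, -5.25 and -6.38. The day 28 groups did not overlap, but the ratio of -1.74 (SE 0.75, limma adjusted p = 0.172) did not pass. Cyp39a1, an oxysterol hydroxylase, was 2.59-fold lower in the day 1 pool and had ratios of -0.31 and 0.37 (SE 0.37 each) later. Cyp7b1, another oxysterol hydroxylase, had -0.06 and -0.30 (SE 0.30 each).

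The vehicle animals themselves differed between day 14 and day 28, and P450 genes were among the differences. Comparing the vehicle group of day 28 with that of day 14, 6 of 50 members (12%) were higher and 0 lower, against 6.99% of all genes higher and 4.16% lower, with 16 members at an unadjusted p under 0.05 by limma. The 6 were Cyp24a1 (ratio 2.36, SE 0.59, limma adjusted p = 0.0295), Cyp2f4, known as a lung P450 that oxidises naphthalene (2.03, SE 0.45, limma adjusted p = 0.0197), Cyp2e1 (1.66, SE 0.34, limma adjusted p = 0.0134), Cyp4a1 (1.47, SE 0.31, limma adjusted p = 0.0162), Cyp2r1 (1.09, SE 0.17, limma adjusted p = 0.00587) and Cyp2c23 (0.99, SE 0.26, limma adjusted p = 0.0365). Cyp2e1 went from 4.50, 3.44 and 3.10 to 5.66, 5.35 and 5.04, and Cyp2f4 from -1.72, -3.60 and -3.91 to -1.17, -1.04 and -0.94. For all 6 genes the vehicle groups did not overlap, and for each of them replicate 1 was the highest vehicle animal of day 14.

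Markers of the renal cortex moved with these genes. Of 12 markers of the convoluted proximal tubule (S1/S2), 8 were higher in the vehicle animals of day 28 and 0 lower, with summed levels of 9.67 to 9.92 against 8.26 to 9.31, and 5 of 6 glomerular markers were higher, with 4.70 to 5.11 against 3.71 to 3.96. The highest S1/S2 sum of the day 14 vehicle animals, 9.31, was that of replicate 1. Their glomerular sum was 3.95 in replicate 1 and 3.96 in replicate 2, so replicate 1 was not the highest there. These sums add levels on the linear scale, so the brightest markers weigh most. In the ANP comparison over both days the same lists moved the other way, with 6 S1/S2 markers lower and 1 higher and 5 glomerular markers lower. Of all genes, 4.08% were lower and 6.14% higher in that comparison. All 12 and all 6 were well above background on every array. The part of tissue composition in the P450 values was not tested. Slide and day also coincided here, in that the vehicle animals of each day shared a slide. With slide as a fixed block, 0 of the 50 members passed by limma, while the ratios of the 6 lay between 0.84 and 2.73. Without vehicle replicate 2 of day 14, or replicate 1 or 2 of day 28, 1 passed (Cyp2r1), and without replicate 3 of day 14, 3 did.

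**Figure D5:**
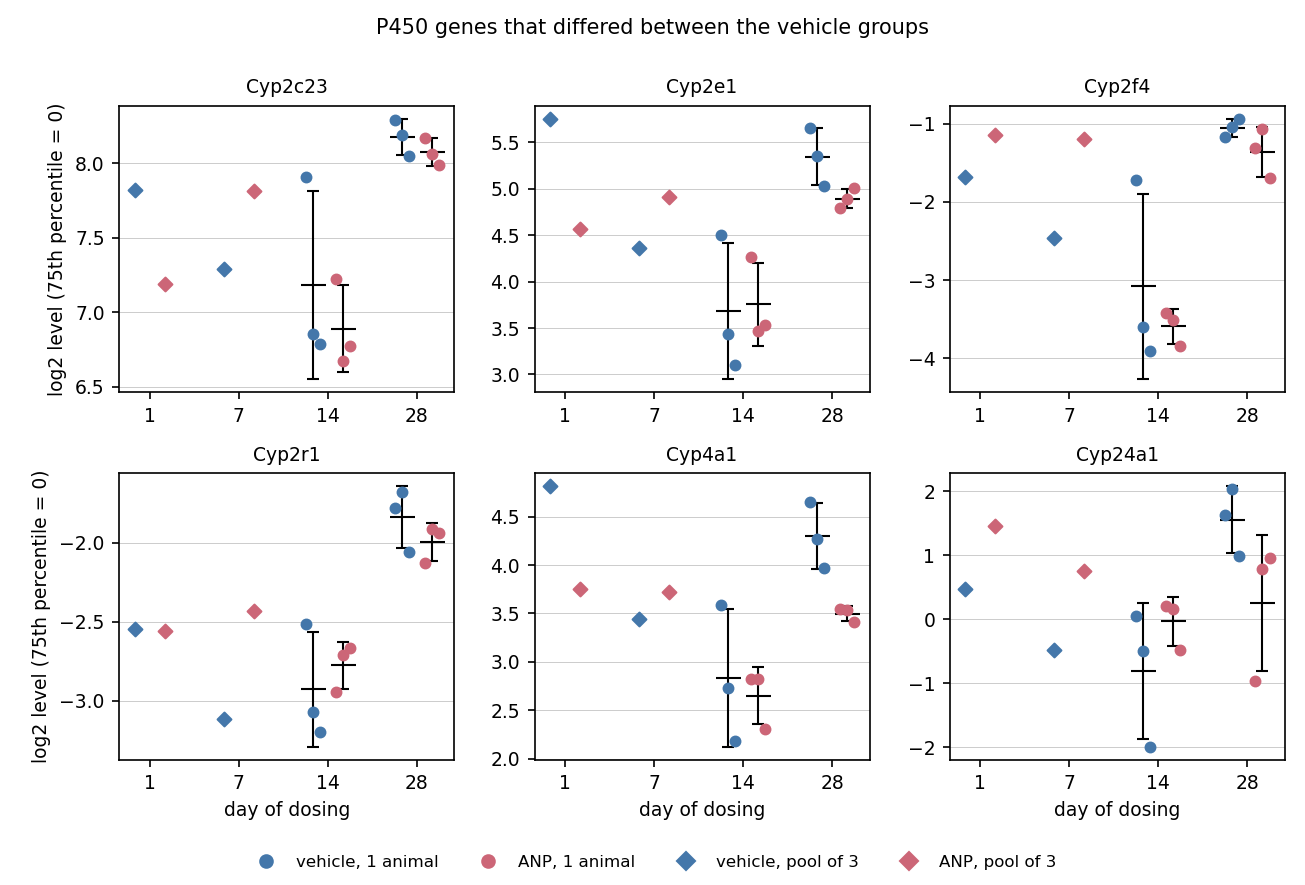
Level (log2, 75th percentile of the array = 0) of the 6 P450 genes that passed the test between the vehicle groups of days 14 and 28, by day of dosing, vehicle in blue and ANP in red; circles are single animals, diamonds pools of 3, and black bars the mean ± SD of 3 animals. In each panel the vehicle animals of day 28 lie above those of day 14, for example 5.04 to 5.66 against 3.10 to 4.50 for Cyp2e1.

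Some genes for proteins that serve P450 enzymes rose with ANP. Of 18 electron donors, binding partners and haem synthesis genes, 3 rose and 1 fell at day 28, 4 rose and 1 fell over both days, and 0 passed at day 14 by limma. Of all genes, 4.49% were higher and 2.69% lower at day 28, and 6.14% and 4.08% over both days. Their median ratio over both days was 0.04 against 0.01 for all genes. Alas1, Fdx2 and Cyb5b were among those that rose. Alas1, which starts haem synthesis, rose by a ratio of 1.27 at day 28 (SE 0.29, 2.40-fold, limma adjusted p = 0.0324), after 1.17 in the day 7 pools and 1.51 at day 14 (limma adjusted p = 0.0605). The ferredoxin Fdx2 (0.46, SE 0.08, limma adjusted p = 0.013) and the cytochrome Cyb5b (0.47, SE 0.10, limma adjusted p = 0.0262) rose at day 28, and the reductase Cyb5r1 fell (-0.44, SE 0.08, limma adjusted p = 0.015). Por, the electron donor of microsomal P450 enzymes, had ratios of 0.01 and 0.09 (SE 0.14 each). In the vehicle comparison Cyb5r1 (0.78) and Ppox (0.66) were higher at day 28.

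Among the known regulators of P450 genes, 20 were tested, and 0 passed at day 14 and 0 at day 28 by limma, and over both days Rxra, the partner of many nuclear receptors, fell (ratio -0.32, SE 0.09, limma adjusted p = 0.0439). Over both days 4.08% of all genes were lower. The list's median over both days was -0.07. Hnf4a, which drives liver and proximal tubule genes, was 2.11-fold lower in the day 1 pools and 2.16-fold higher in the day 7 pools. Of 11 genes of the growth hormone and androgen axes, which set the level of Cyp2c11 in liver, 0 passed at day 14, day 28 or over both days. In the day 1 pools 4 of the 11 were at least 2-fold lower, against 4.95% of all genes compared. Stat5a (2.39-fold), Esr1 (2.37-fold) and Prlr (2.49-fold) were among them. In the day 7 pools 1 was at least 2-fold lower and 1 higher, against 2.53% and 2.12% of all genes. The part of this list in the Cyp2c11 values was not tested.

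Of 15 tested enzymes of eicosanoid and epoxide metabolism, 2 rose and 1 fell over both days and 0 passed at day 14 or day 28 by limma. Ephx1, the epoxide hydrolase that often acts on products of P450 enzymes, was 4.39-fold higher in the day 1 pools and 3.85-fold higher in the day 7 pools, and rose by 1.12 over both days (SE 0.27, limma adjusted p = 0.0268). Alox12, a lipoxygenase, rose by 0.89 (SE 0.20, limma adjusted p = 0.0227), and Hpgd, which inactivates prostaglandins, fell (ratio -0.88, SE 0.18, limma adjusted p = 0.0149). The list's median was 0.24 against 0.01 for all genes, of which 6.14% were higher and 4.08% lower.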

How the data were processed

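Renal outer medulla RNA was measured on 16 arrays. The submitters' processing notes name Agilent Feature Extraction 10.7 as the source of the spot values. The authors' processed signal intensity is background-subtracted and not yet scaled, per the file headers. The authors' deposited value table is a ratio of that signal to the array's 75th percentile, and served as an alternative. From the processed signal, log2 values minus the 75th percentile were taken over 61657 probes, without outlier spots. Saturation flagged 0 spots. Gene names came from the RefSeq accession, without version, in a GRCr8 table (27460 probes, 15284 genes). Where a gene had several probes, the brightest on average across the 12 replicated arrays stood for it. Limma 3.58.1 (R 4.3.3; lmFit, eBayes) fitted 1 mean per group over these 12 arrays, from separate animals per the labels. The number of arrays limits the precision. Same-numbered animals of the ANP and vehicle groups correlated at -0.07 to 0.14, so numbers were not used as pairs. The method was tested on simulated data. The background alternative used the median signal in place of the mean signal that had been planned. All members were eligible to be named, and a fixed panel (Cyp2c24, Cyp2u1 and Cyp46a1 of it are not analysed here) was reported whatever it showed. The members, lists and tests were chosen with earlier results of these data known. Some genes of the lists are not reported here by name.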

Additional observations from a re-analysis of the deposited data

How the results depend on the processing

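Of 688 ratios of single genes recomputed under other settings, 601 kept direction and side of the threshold, 74 lost the call, 8 gained it and 5 changed sign. The sign changes were Cyp2c7 (0.17) and Cyp3a2 (0.11) at day 14 without the 4 arrays highest in Alb, where 1 vehicle animal of day 14 remains, Cyp2c11 between vehicle groups (-1.46 with all arrays, -2.61 to 0.25 on leaving out 1 array), reversed without vehicle replicate 3 of day 28, and Cyp4a8 over both days at its other probes (0.91 and 1.13). The count at day 14 (0) became 1 with normexp, with the filter on all 12 arrays and with only the 2 groups fitted, and 2 with slide as a random block, with 0 to 1 on leaving out 1 array. At day 28 (1) it became 2 with normexp, without a filter on dim probes and with the mean of a gene's probes, 3 with slide as a random block and 0 without the arrays high in Alb, with 0 to 2 on leaving out 1 array. With only the 2 groups of day 28 fitted the 1 gene was Cyp3a9, not Cyp2c11. Over both days (4) it became 2 without the filter, 2 with the replicate block (Cyp3a9 and Cyp2c11) and 0 without the arrays high in Alb, with 2 to 4 on leaving out 1 array; the replicate block changed no other count by over 1.5 times. Between vehicle groups (6) it became 0 with slide as a fixed block, 1 without the arrays high in Alb and 3 with only the 2 groups, with 1 to 8 on leaving out 1 array. The day 1 and day 7 counts of lower genes (15 and 6) became 6 and 1 with normexp. The counts in this section are of P450 genes and are given without the share of all genes under each setting. Slide as a fixed block could not be fitted at day 28, where slide and treatment coincide. The random slide block used an estimated correlation within slides of -0.09, which is below 0. The cause of these shifts was not tested, beyond the fewer arrays or genes that some settings use. Dim probes, such as those of Cyp3a9 and Cyp1a2, limit what fold can be read.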
